A study of Mus musculus with 6 samples.

Results

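The dKO XY granulosa-program cells are the supporting cells of testes lacking *Amh* and *Inhbb* that held transcripts of the granulosa lineage and little of the Sertoli marker *Cst9*. They come from single cell mRNA sequencing (10x Genomics) of mouse gonads at E15.5 in 3 groups of 2 libraries each. Control XY (testis) and control XX (ovary) gonads were wild type (*Amh*+/+; *Inhbb*+/+), and dKO XY gonads were XY with the genotype *Amh*-/-; *Inhbb*-/-, all on a C57BL/6 background. Each library held the pooled gonad pair of 1 embryo, dissociated and kept frozen until genotyping. The deletions are carried in the germline, so they are not limited to supporting cells. The members were chosen by measured transcript levels, given as CPM (UMIs, or unique transcript counts, of a gene per 1000000 UMIs). A cell of a dKO XY library that passed the filter on cell quality was a member if it had less than 200 CPM of *Cst9*, at least 100 CPM of *Rspo1*, *Foxl2* and *Fst* together, and at least 300 CPM of *Kctd14*, a gene of the supporting lineage in both sexes. Cells with 4000 CPM or more of *Cyp17a1* and *Cyp11a1* together (Leydig cells), 5 or more *Dazl* UMIs (germ cells) or 2 or more *Upk3b* UMIs (surface epithelium) were left out, and the cells that pass these last limits and the one on *Kctd14* are called *Kctd14* cells. This gave 948 members, 497 in replicate 1 and 451 in replicate 2, of 2798 *Kctd14* cells and 13852 cells in dKO XY and of 39350 cells in the 3 groups.

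The fetal gonad starts from supporting cell precursors that can take either fate. In the testis, *Sry* and *Sox9* direct them to become Sertoli cells, which form the cords, divide, and secrete AMH, activin B and Desert hedgehog. In the ovary, RSPO1 and WNT4 act through beta-catenin, and together with FOXL2 and RUNX1 they set the granulosa fate, in which the fetal cells leave the cell cycle. AMH signals through its own type 2 receptor AMHR2 and activin B through the activin receptors, and both pass through SMAD proteins. Follistatin, the product of *Fst*, binds activins.

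In these data the members held little of the Sertoli transcripts and carried *Runx1*, but far less of *Irx3*, *Gng13*, *Kitl* and *Lgr5* than control XX granulosa-program cells. They also had more transcripts of mitosis and more basement membrane collagen. A small group of genes, led by *Pltp*, *Cpa1* and *Ccnd1*, was above the level of the supporting cells of either control. The same rule applied to control XX gave 2983 and 1253 cells, which serve below as the comparison, while in control XY it gave 4 and 8.

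The members were sequenced to a median of 23271 and 26270 UMIs in replicates 1 and 2, against 23737 and 19280 in control XX granulosa-program cells. Pairs of libraries shared 4 to 25 cell barcodes, and none of these belonged to granulosa-program cells in both. Scrublet's automatic threshold marked 0 to 71 cells per library and was not used as a call. Among the 8% of cells with the highest doublet scores in each library were 13.3% and 12.2% of the members, against 7.17% and 8.46% of the control XX cells. Some libraries stood apart from their replicates. The members of the dKO XY libraries differed in immediate early and heat shock transcripts, with 10597 and 5128 CPM over 11 genes in replicates 1 and 2, against 11538 and 11854 CPM in control XX, so replicate 2 lay apart from the other 3 libraries. Control XX replicate 2 held more of the interstitial gene *Tcf21*, at 21.9 and 91.8 CPM in replicates 1 and 2. Leaving out cells with a UMI of *Tcf21* or *Sycp3*, an alternative used below, left 264 and 227 members in replicates 1 and 2. It left 1778 and 586 control XX granulosa-program cells. In all pairs of values below, replicate 1 comes first.

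The members made up 31.7% (95% Clopper-Pearson interval 29.4 to 34.1) and 36.6% (33.9 to 39.4) of the *Kctd14* cells of dKO XY. In control XX the same share was 95.5% and 88.2%, and in control XY 1.60% and 1.61%. The 2 dKO XY libraries lay apart from all 4 control libraries, but the share follows from the rule and is a description. Its intervals cover counting error only. The other dKO XY *Kctd14* cells were 651 and 342 Sertoli-program cells (*Cst9* of at least 200 CPM and the granulosa genes under 100 CPM), 82 and 88 co-expressing cells with both at or above these levels, and 336 and 351 cells with neither. Control XX had no Sertoli-program cell and 1 co-expressing cell, and control XY had 196 and 387 Sertoli-program cells and 1 co-expressing cell. The cells just inside the limit on granulosa genes (100 to 125 CPM, 25 and 26 cells) had 252 and 282 CPM of *Tcf21* and those just outside it (75 to 100 CPM, 23 and 15 cells) had 352 and 233 CPM. At the limit on *Cst9*, the 12 and 20 cells inside it (150 to 200 CPM) had 217 and 81.7 CPM of *Sox9*, and the 10 and 13 cells outside it (200 to 250 CPM) had 272 and 64.5 CPM. At the limit on *Kctd14*, the 23 and 8 cells inside it (300 to 375 CPM) had 57.9 and 23.3 CPM of *Runx1*, and the 14 and 19 cells outside it (225 to 300 CPM) had 37.8 and 42.6 CPM. *Tcf21* was at 218 and 621 CPM in the cells inside this limit and 243 and 218 CPM in those outside it.

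The genes of the rule were not present in the members in the proportions of control XX. *Rspo1* (chromosome 4, 124986430 to 125009099 of GRCm38), which encodes the R-spondin that potentiates WNT signalling, was at 319.9 and 305 CPM in the members and 258 and 218 CPM in control XX. *Foxl2* (chromosome 9, 98955288 to 98958543), the forkhead factor of granulosa cells, was at 77.6 and 107 against 214 and 184 CPM. *Fst* (chromosome 13, 114452290 to 114458951), encoding follistatin, was at 218 and 116 against 1192 and 946 CPM. The members thus lay above both control XX libraries in *Rspo1* and below both in *Foxl2* and *Fst*. These values chose the cells, so no test of them is given. The 9 genes of the rule were in the fit, and 4 of them were called higher and 2 lower. They count among all genes tested below, and their calls are no support. *Kctd14* (chromosome 7, 97451323 to 97459557) was at 2173 and 2752 CPM in the members, 1696 and 1474 CPM in control XX and 923 and 957 CPM in control XY Sertoli-program cells. *Cst9* (chromosome 2, 148835147 to 148838738), a cystatin gene of Sertoli cells, was at 31.8 and 35.3 CPM in the members, 2.37 and 2.42 CPM in control XX and 2600.1 and 2201 CPM in dKO XY Sertoli-program cells.

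Single cells differed in which of the 3 granulosa genes they held. All 3 were detected in 34.0% and 33.9% of the members and in 78.4% and 63.9% of control XX granulosa-program cells. *Rspo1* without the other 2 was detected in 21.1% and 15.3% of the members and in 0.603% and 3.19% of control XX cells, and *Rspo1* with *Foxl2* but no *Fst* in 23.7% and 37.7% against 3.05% and 5.27%. After every cell was thinned to 5000 UMIs, *Rspo1* was alone in 34.2% and 33.3% of the members and 3.05% and 6.30% of control XX cells, a depth that every cell of both groups reached. *Fst* was then detected in 36.2% and 24.4% of the members against 88.5% and 81.1% of control XX cells (unthinned 52.7% and 44.1% against 95.5% and 87.9%). As a background, 1.20% and 0.855% of the endothelial cells of dKO XY, whose median depth was 32027 and 40537 UMIs, held an *Fst* UMI at 5000 UMIs. These combinations are of the genes that chose the cells and are a description. The members also had less of the 3 genes in sum, with 472 and 456 CPM in the median cell, against 1549 and 1225 CPM in control XX.

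Of the markers that name these cells, *Runx1* and *Myl1* took no part in the rule. They were named with earlier results of these data known, so their levels and tests are no independent support. *Runx1* (chromosome 16, 92601466 to 92826149), a transcription factor of fetal granulosa cells, was at 95.2 and 110.4 CPM in the members and 174 and 119.9 CPM in control XX (log2 fold change -0.38 ± 0.18 SE, edgeR adjusted p = 0.154), and at 1.27 and 1.67 CPM in control XY Sertoli-program cells. The difference from control XX did not pass the test, although both dKO XY libraries lay below both control XX libraries. It was also at 53.6 and 58.6 CPM in dKO XY Sertoli-program cells, so *Runx1* was not restricted to the members. *Myl1* (chromosome 1, 66924295 to 66945404), a myosin light chain gene, was at 37.4 and 43.7 CPM in the members and 47.9 and 30.4 CPM in co-expressing cells. It was at only 3.56 and 3.17 CPM in control XX (log2 fold change 3.72 ± 0.24 SE, edgeR adjusted p = 1.73e-05), 1.26 and 2.89 CPM in dKO XY Sertoli-program cells and 0.796 and 0.0837 CPM in control XY. At 5000 UMIs *Myl1* was detected in 10.9% and 11.8% of the members (unthinned 26.4% and 34.8%), 1.37% and 1.44% of control XX cells and 0.800% and 0% of dKO XY endothelial cells. Among the classes given here, *Myl1* was highest in the dKO XY cells with granulosa genes, and it did not mark granulosa-program cells of the control XX ovary.

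The Sertoli program was low in the members. Of 22 Sertoli genes, 22 were below the control XY Sertoli-program cells with no overlap of libraries, where 38.1% of all genes tested were below in this way. The rule used this contrast, so the count is a description. *Sox9*, the transcription factor of Sertoli fate, was at 81.6 and 59.5 CPM in the members, 406 and 403 CPM in control XY and 507 and 510.3 CPM in dKO XY Sertoli-program cells. In control XX granulosa-program cells *Sox9* was at 83.3 and 83.3 CPM (log2 fold change -0.10 ± 0.16 SE, edgeR adjusted p = 0.686), and the difference did not pass the test. *Fgf9*, a secreted factor of Sertoli cells, was at 3.71 and 4.84 CPM against 3.81 and 3.17 CPM in control XX, and these libraries overlapped.

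Some other Sertoli genes were still above control XX, though the sum of the list was not. *Dhh*, encoding Desert hedgehog, was at 10.5 and 11.2 CPM in the members and 0.625 and 0.722 CPM in control XX (log2 fold change 4.17 ± 0.16 SE, edgeR adjusted p = 1.13e-06), with 242 and 231 CPM in control XY Sertoli-program cells. *Ptgds*, which encodes a prostaglandin D synthase, was at 91.1 and 85.3 against 34.3 and 26.7 CPM (log2 fold change 1.67 ± 0.15 SE, edgeR adjusted p = 0.000102). *Nedd9* was at 58.5 and 64.1 against 19.5 and 14.8 CPM (log2 fold change 1.97 ± 0.17 SE, edgeR adjusted p = 7.12e-05). *Tesc*, listed with the markers of rete cells but at 681 and 761 CPM in control XY Sertoli-program cells, was at 17.8 and 26.3 against 2.61 and 3.204 CPM (log2 fold change 3.08 ± 0.21 SE, edgeR adjusted p = 2.08e-05). In each of these genes both dKO XY libraries lay above both control XX libraries. Against control XX, 13 of 22 Sertoli genes were higher, 4 lower (*Mro*, *Gstm6*, *Kazald1* and *Cst12*) and 5 not called, with a median log2 fold change of 1.24. The 22 genes summed to 1205 and 1195 CPM in the members and 1264 and 1278 CPM in control XX. Among the higher genes, the calls of *Cldn11*, *Sox8* and *Sox10* were not kept in every alternative. The *Cst12* call was lost without dKO XY replicate 2 (log2 fold change -0.60, edgeR adjusted p = 0.0751), without control XX replicate 1 (-0.40, 0.112) and without cells with *Tcf21* or *Sycp3* (-0.40, 0.0962). Over all 14525 genes tested, 26.3% were called, 14.5% higher and 11.8% lower, and the median was -0.01. CPM in the text are of all UMIs, and the fold changes are scaled by edgeR's trimmed mean method, which places them 0.14 above the log2 ratio of those CPM. In single cells *Dhh* was compared with interstitial cells, since endothelial cells held it also in control XX, in 3.70% and 2.52% of them at 5000 UMIs. At this depth *Dhh* was detected in 4.02% and 4.21% of the members and 1.75% and 2.12% of dKO XY interstitial cells, whose median depth was 19735 and 22930 UMIs (unthinned 20.3% and 24.4% against 6.62% and 8.84%). Its level in those interstitial cells was 2.95 and 3.25 CPM. *Cst9* was detected in 14.5% and 16.2% of the members and 10.8% and 11.1% of dKO XY endothelial cells (unthinned 52.3% and 58.3% against 38% and 46.2%). *Sox9* was detected in 25.4% and 18.4% of the members and 3.60% and 3.42% of endothelial cells (unthinned 53.7% and 47.9% against 19.2% and 27.4%), but also in 16.7% and 16.8% of interstitial cells. By level, 18 of the 22 genes were higher in the members than in interstitial and endothelial cells of the same library in both replicates. The others were *Cldn11*, *Fshr*, *Nedd9* and *Sox10*. In 14 genes the members were at least 2 times as high. The share of all genes above in this way was not computed. Leydig and germ cells had no part in this count. In dKO XY the 22 genes summed to 3685 and 3322 CPM in Leydig cells and 1247 and 2076 CPM in germ cells.

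The targeted genes were low or ambiguous in the members. *Amh* was at 10.8 and 11.9 CPM in the members, 25.2 and 19.4 CPM in dKO XY Sertoli-program cells and 2371 and 2237 CPM in control XY Sertoli-program cells. *Inhbb* was at 20.7 and 38.4 CPM in the members and 36.3 and 23.0 CPM in control XX, with overlapping libraries, and at 56.7 and 62.5 CPM in dKO XY and 190.2 and 216 CPM in control XY Sertoli-program cells. The sources used here do not give which part of each gene was deleted, so 3' counts can persist and check the *Inhbb* label only in part.

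**Figure D1:**
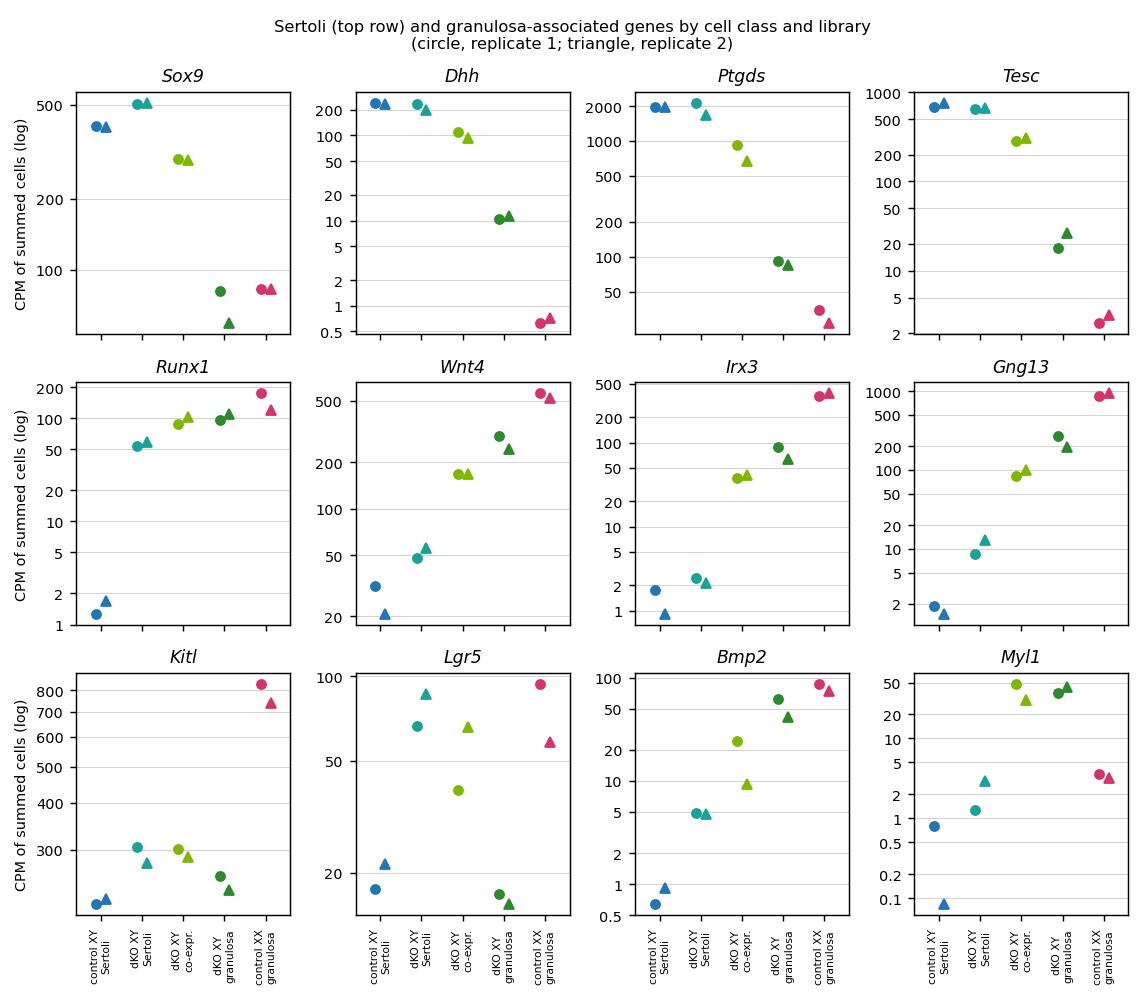
CPM of summed cells on a log axis for 12 genes, by cell class and library (circle, replicate 1; triangle, replicate 2): control XY Sertoli-program, dKO XY Sertoli-program, dKO XY co-expressing, dKO XY granulosa-program and control XX granulosa-program cells. The Sertoli genes of the top row are low in the members, with *Sox9* at 81.6 and 59.5 CPM in the members, while *Irx3* and *Gng13* are between the 2 controls and *Myl1* is at 37.4 and 43.7 CPM in the members against 3.56 and 3.17 CPM in control XX.

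Which genes set the members apart from granulosa cells of the ovary was tested on UMIs summed per library, with the same rule in both groups. Of 14525 genes tested, 3821 (26.3%) were called (edgeR quasi-likelihood test, Benjamini-Hochberg adjusted p under 0.05), 2108 higher and 1713 lower in the members. With 1 library left out at a time the count was 2405 to 3554, and it was lowest without dKO XY replicate 2, with 918 genes lower. Without control XX replicate 1 or 2, 1133 and 1109 genes were lower. Among called genes with a mean of at least 32 CPM and with no overlap of libraries, a condition of the choice, those with the largest rises were *Smoc2*, *Aqp5*, *Fbln2*, *Pltp*, *Ctgf*, *Robo2*, *Cpa1*, *Pcsk5*, *Igfbp7* and *Mef2c*. *Smoc2*, which encodes a matricellular protein, was at 69.6 and 100.1 CPM in the members and 0.324 and 1.04 CPM in control XX (log2 fold change 7.36 ± 0.39 SE, edgeR adjusted p = 6.27e-06). *Aqp5*, a water channel gene, was at 55.6 and 78.2 against 1.19 and 0.534 CPM (log2 fold change 6.26 ± 0.29 SE, edgeR adjusted p = 2.78e-06). *Fbln2*, encoding the matrix protein fibulin 2, was at 124 and 162 against 5.69 and 6.19 CPM (log2 fold change 4.73 ± 0.24 SE, edgeR adjusted p = 4.54e-06). Apart from *Aqp5*, *Fbln2* and *Cpa1*, these genes were at a higher level in dKO XY interstitial cells than in the members in both libraries. *Aqp5* was higher than in the members in dKO XY Leydig cells, at 71.0 and 100.6 CPM. In interstitial cells *Robo2* was at 204 and 271 CPM and *Igfbp7*, a secreted binding protein gene, at 483 and 448 CPM, against 79.4 and 93.0 and 104 and 90.5 CPM in the members. *Smoc2* was at 87.3 and 100.3 CPM there. In control XY Sertoli-program cells the 10 genes ranged from 5.25 and 1.92 CPM of *Cpa1* to 171 and 183 CPM of *Mef2c*, a transcription factor gene, the only one with both of these libraries above both of the members'. *Ctgf* differed between the dKO XY libraries, at 148 and 68.9 CPM, against 5.30 and 10.4 CPM in control XX (log2 fold change 3.96 ± 0.41 SE, edgeR adjusted p = 0.000176).

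By the same conditions, the genes with the largest falls were *Thbs2*, *Calb1*, *Lbx2*, *Cntn4*, *Sorbs2*, *Hist3h2ba*, *Msx1*, *Tnfrsf19*, *Cited4* and *Peg10*. *Thbs2*, encoding the matrix protein thrombospondin 2, was at 5.89 and 2.97 CPM in the members and 90.2 and 85.6 CPM in control XX (log2 fold change -4.19 ± 0.27 SE, edgeR adjusted p = 1.77e-05). *Lbx2*, a homeobox gene, was at 21.4 and 13.2 against 133 and 176 CPM (log2 fold change -3.02 ± 0.28 SE, edgeR adjusted p = 0.000117). *Tnfrsf19*, a receptor of the TNF family, was at 34.1 and 27.9 against 169 and 143 CPM (log2 fold change -2.19 ± 0.15 SE, edgeR adjusted p = 2.34e-05). *Calb1*, encoding the calcium binding protein calbindin, was at 15.6 and 2.13 against 62.1 and 107 CPM (log2 fold change -3.13 ± 0.61 SE, edgeR adjusted p = 0.00526), and it was not called by DESeq2. All 10 were at or below 23.5 CPM in each control XY Sertoli-program library.

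**Figure D2:**
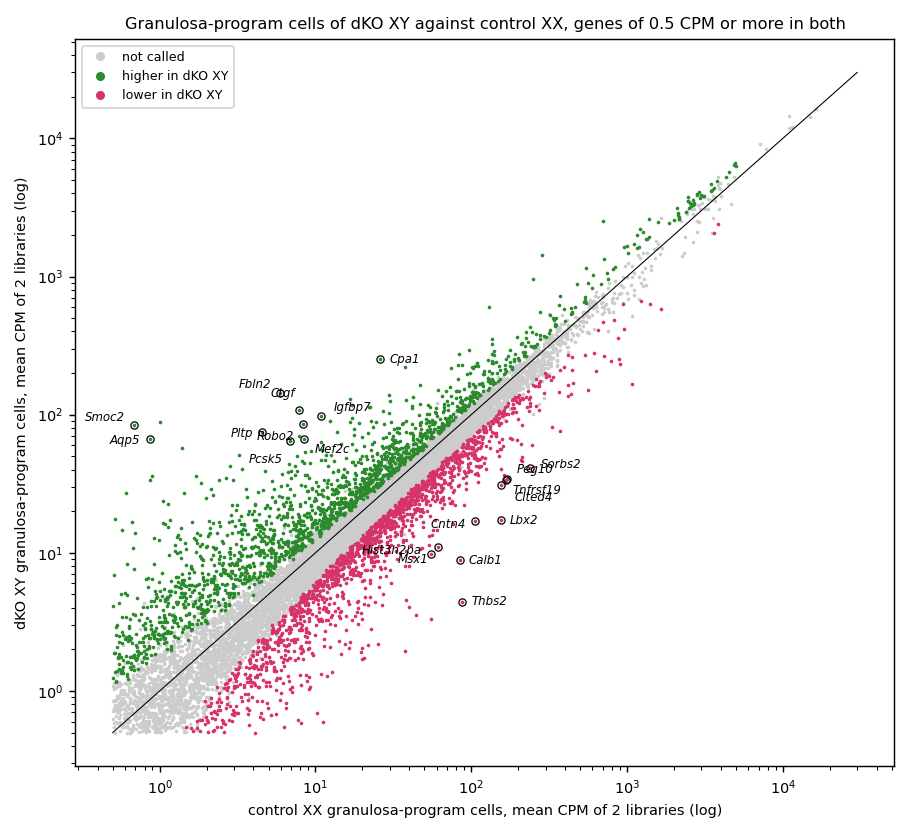
Mean CPM of 2 libraries on log axes in granulosa-program cells of control XX (x) and of dKO XY (y), 1 point per gene with at least 0.5 CPM in both, coloured by the edgeR call (2108 genes higher in dKO XY and 1713 lower among all genes tested). The named genes with the largest rises (such as *Smoc2*) and falls (such as *Thbs2*) are circled, and the line marks equal levels.

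The granulosa program itself was incomplete. Of 17 genes listed as granulosa markers and outside the rule, 11 fell (64.7%, against 11.8% of all genes tested), 3 rose (*Myl1*, *Nr0b1* and *Esr2*; 14.5% of all genes) and 3 were not called, *Runx1* and *Bmp2* among them, with a median log2 fold change of -1.45 against -0.01 over all genes. *Myl1* is in this list as a marker of the dKO XY cells and was low in control XX. In 16 of the 17 the members were above control XY Sertoli-program cells with no overlap of libraries (33.2% of all genes, a contrast the rule used), the other being *Lgr5*. In 13 of the 17 the members lay between the controls, as in 3587 of all 14525 genes tested, a contrast the rule used in part. *Irx3* (chromosome 8, 91798525 to 91802067), a homeobox factor of granulosa cells, was at 87.6 and 64.4 CPM in the members, 358 and 385 CPM in control XX (log2 fold change -2.15 ± 0.18 SE, edgeR adjusted p = 7.69e-05) and 1.75 and 0.920 CPM in control XY. *Irx5*, its neighbour in the same cluster, was at 2.399 and 1.68 against 17.1 and 15.8 CPM (log2 fold change -2.88 ± 0.24 SE, edgeR adjusted p = 7.06e-05). Both control XX libraries lay far above the members in these genes. *Wnt4* (chromosome 4, 137277489 to 137299726), the WNT ligand of the ovarian pathway, was at 295 and 242 against 557 and 520.2 CPM (log2 fold change -0.86 ± 0.18 SE, edgeR adjusted p = 0.00792). The call was lost without dKO XY replicate 2 (log2 fold change -0.73, edgeR adjusted p = 0.0508), without likely doublets (-0.76, 0.0534) and without cells with *Tcf21* or *Sycp3* (-0.50, 0.0562). In dKO XY interstitial cells *Wnt4* was at 221 and 193 CPM, and among members without a UMI of *Tcf21* or *Sycp3* it was at 395 and 322 CPM.

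*Kitl* (chromosome 10, 100015630 to 100100416), encoding the KIT ligand that acts on germ cells, was at 256 and 234 CPM in the members and 830.0 and 739.7 CPM in control XX (log2 fold change -1.54 ± 0.13 SE, edgeR adjusted p = 6.74e-05), close to the 215 and 221 CPM of control XY Sertoli-program cells. *Gng13*, a G protein gamma subunit, was at 267 and 195 against 863 and 934 CPM (log2 fold change -1.82 ± 0.17 SE, edgeR adjusted p = 0.000111), but at 1.91 and 1.51 CPM in control XY. *Lgr5*, a receptor for R-spondins, was at 16.8 and 15.4 CPM in the members and 93.8 and 58.5 CPM in control XX (log2 fold change -2.11 ± 0.22 SE, edgeR adjusted p = 0.000194). Its order among the classes was not one of steps: dKO XY Sertoli-program cells had 66.8 and 86.7 CPM, co-expressing cells 39.3 and 65.8 CPM and control XY 17.5 and 21.4 CPM. The members were thus near control XY Sertoli-program cells, and both dKO XY classes with *Cst9* were above them. *Bmp2*, a BMP ligand of the ovary, was at 62.1 and 42.0 against 86.7 and 73.7 CPM (log2 fold change -0.49 ± 0.18 SE, edgeR adjusted p = 0.0841). It did not pass the test, although the libraries did not overlap. *Nr0b1*, which encodes DAX1, was higher in the members, at 38.1 and 31.8 against 22.4 and 22.4 CPM (log2 fold change 0.78 ± 0.14 SE, edgeR adjusted p = 0.00346). Of the 17 genes, 14 were above the interstitial and endothelial cells of the same library in both replicates, 10 of them by at least 2 times. The others were *Irx5*, *Lef1* and *Msx1*. Those interstitial and endothelial cells were chosen with *Kctd14* under 300 CPM, so the count is a description only. The share of all genes above in this way was not computed.

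Of 14 genes shared by supporting cells of both sexes, 2 rose, 2 fell and 10 were not called, shares near the 14.5% and 11.8% of all genes tested. *Wt1*, a factor needed by the early gonad, was at 254 and 302 against 318 and 283 CPM (log2 fold change 0.03 ± 0.14 SE, edgeR adjusted p = 0.914). *Gata4*, its partner, was at 124 and 153.01 against 126 and 124 CPM (log2 fold change 0.29 ± 0.13 SE, edgeR adjusted p = 0.146). Both overlapped between the groups. *Nr5a1*, encoding SF1, was at 52.8 and 71.9 against 47.4 and 39.1 CPM (log2 fold change 0.66 ± 0.18 SE, edgeR adjusted p = 0.0221). *Zfpm2* was at 65.7 and 79.6 against 47.1 and 49.1 CPM (log2 fold change 0.73 ± 0.14 SE, edgeR adjusted p = 0.00489). *Emx2*, a homeobox gene of the gonadal epithelium, fell to 64.1 and 66.9 from 214 and 177 CPM (log2 fold change -1.44 ± 0.14 SE, edgeR adjusted p = 0.000152) and *Gata6* to 121 and 135 from 207 and 202 CPM (log2 fold change -0.54 ± 0.12 SE, edgeR adjusted p = 0.00838). The *Nr5a1* call was lost without control XX replicate 2 (log2 fold change 0.52, edgeR adjusted p = 0.1253) and without dKO XY replicate 2 (0.43, 0.159). The *Gata6* call was lost without dKO XY replicate 1 (-0.48, edgeR adjusted p = 0.0573) and without cells with *Tcf21* or *Sycp3* (-0.26, 0.184). *Lhx9*, a gene of progenitor and interstitial cells, was at 172 and 133 CPM in the members and 169 and 161 CPM in control XX, with overlapping libraries, and at 40.1 and 20.2 CPM in control XY Sertoli-program cells.

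The members held more cell cycle transcripts than the granulosa cells of control XX. All 14 mitosis genes rose, with a median log2 fold change of 2.49, and 11 of 14 S phase genes rose, with a median of 0.80, where 14.5% of all genes tested rose. The mitosis list summed to 753 and 921 CPM in the members, 146 and 194 CPM in control XX and 1687 and 2430.1 CPM in control XY Sertoli-program cells. In each of the 14 genes the members lay between the controls, as in 3587 of all 14525 genes tested. *Mki67*, which encodes the Ki-67 antigen, was at 71.9 and 104 against 16.2 and 17.1 CPM (log2 fold change 2.54 ± 0.26 SE, edgeR adjusted p = 0.000172). *Top2a*, a topoisomerase of dividing cells, was at 118 and 158 against 28.0 and 31.2 CPM (log2 fold change 2.36 ± 0.19 SE, edgeR adjusted p = 6.32e-05). Both dKO XY libraries lay above both control XX libraries. After thinning to 5000 UMIs, 3 or more UMIs of the list were found in 18.9% and 27.5% of the members and 3.15% and 8.94% of control XX cells (unthinned 61.2% and 75.2% and 26.0% and 31.4%), against 44.7% and 51.2% of dKO XY Sertoli-program cells. Among members without a UMI of *Tcf21* or *Sycp3* the list summed to 286 and 685 CPM, and to 63.5 and 51.4 CPM in such control XX cells. All 14 genes rose in this comparison too. *Mcm6* and *Gins2*, of the S phase list, lost their calls in 9 of 17 alternatives each.

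The cycle inhibitor genes *Cdkn1b* and *Cdkn1c* fell. *Cdkn1b* (chromosome 6, 134920401 to 134925513), which encodes p27, was at 203 and 209 CPM in the members and 634 and 635 CPM in control XX (log2 fold change -1.48 ± 0.12 SE, edgeR adjusted p = 4.99e-05), with 39.9 and 42.9 CPM in control XY Sertoli-program cells. *Cdkn1c* (chromosome 7, 143458339 to 143461050), encoding p57, was at 631 and 542 against 1669 and 1655 CPM (log2 fold change -1.36 ± 0.17 SE, edgeR adjusted p = 0.000508) and 65.6 and 46.3 CPM in control XY. The members lay between the controls in both genes, without overlap. Of 10 cyclin-dependent kinase inhibitors and D cyclins, 3 rose (*Ccnd1*, *Ccnd2* and *Cdkn2c*), 3 fell (*Cdkn1b*, *Cdkn1c* and *Cdkn2a*) and 4 were not called, where 14.5% of all genes tested rose and 11.8% fell. The D cyclins differed among themselves. *Ccnd1* was at 75.1 and 106 against 15.0 and 9.93 CPM (log2 fold change 2.98 ± 0.22 SE, edgeR adjusted p = 3.72e-05), *Ccnd2* at 431 and 535 against 345 and 337 CPM (log2 fold change 0.64 ± 0.14 SE, edgeR adjusted p = 0.00828). *Ccnd3* was at 172 and 154 against 183 and 219.8 CPM (log2 fold change -0.17 ± 0.16 SE, edgeR adjusted p = 0.494). Without dKO XY replicate 2 the *Ccnd2* call was lost (log2 fold change 0.48, edgeR adjusted p = 0.0772), and so was that of *Cdkn2a* (-1.56, 0.106), which was also lost without control XX replicate 2 (-1.67, 0.0881). *Ccnd1* was also at 58.9 and 86.2 CPM in dKO XY Sertoli-program cells but at 3.02 and 3.10 CPM in those of control XY.

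**Figure D3:**
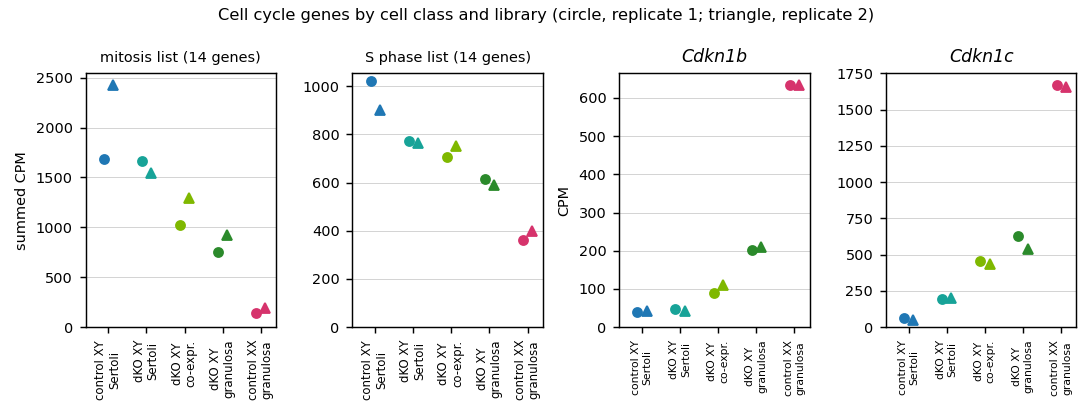
Summed CPM of the mitosis and S phase lists and CPM of *Cdkn1b* and *Cdkn1c* by cell class and library (circle, replicate 1; triangle, replicate 2), on linear axes from 0. The members stand between the Sertoli-program cells and control XX, at 753 and 921 CPM for the mitosis list and 203 and 209 CPM for *Cdkn1b*.

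Of 24 targets and regulators of WNT signalling tested, 8 fell (33.3%, against 11.8% of all genes tested), 3 rose (12.5%, near the 14.5% of all genes) and 13 were not called. *Axin2*, a feedback target of beta-catenin, was at 37.8 and 33.8 CPM in the members and 85.4 and 65.4 CPM in control XX (log2 fold change -0.94 ± 0.15 SE, edgeR adjusted p = 0.00199), against 8.59 and 7.87 CPM in control XY. *Sp5*, another target, was at 27.8 and 16.8 against 85.9 and 94.0 CPM (log2 fold change -1.87 ± 0.21 SE, edgeR adjusted p = 0.000248), *Nkd1* at 48.9 and 41.0 against 114 and 128 CPM (log2 fold change -1.29 ± 0.15 SE, edgeR adjusted p = 0.000328). *Lef1*, a mediator of the pathway, was at 13.96 and 8.71 against 37.4 and 30.6 CPM (log2 fold change -1.45 ± 0.22 SE, edgeR adjusted p = 0.00135). *Rnf43*, encoding a ligase that removes WNT receptors, was at 5.45 and 7.29 against 22.6 and 18.3 CPM (log2 fold change -1.54 ± 0.20 SE, edgeR adjusted p = 0.000525). All 5 lay below control XX and above control XY in both libraries. The receptor *Lgr4* was at 144 and 149.7 against 147 and 159 CPM (log2 fold change 0.08 ± 0.11 SE, edgeR adjusted p = 0.673) and the coreceptor *Lrp6* at 65.7 and 67.2 against 77.9 and 72.3 CPM (log2 fold change -0.04 ± 0.12 SE, edgeR adjusted p = 0.849). *Sp5* and *Lgr5* were higher in dKO XY Sertoli-program cells than in the members, at 57.0 and 47.7 and 66.8 and 86.7 CPM. Of the genes that rose, *Wnt5a* was at 35.3 and 41.2 against 16.8 and 22.8 CPM (log2 fold change 1.10 ± 0.21 SE, edgeR adjusted p = 0.00509) and at 228 and 235 CPM in dKO XY interstitial cells. The others were *Lrp5* and *Rspo3*, whose calls were lost in 3 and 7 of 17 alternatives.

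Receptors of both missing ligands were present in the members. *Amhr2*, the AMH receptor, was at 288 and 273 CPM in the members and 350.1 and 359 CPM in control XX (log2 fold change -0.20 ± 0.12 SE, edgeR adjusted p = 0.253), and at 224 and 235 CPM in control XY Sertoli-program cells. The activin type 2 receptors *Acvr2a* and *Acvr2b* were at 11.3 and 11.9 and at 27.7 and 30.9 CPM in the members and were not called, while the type 1 receptor *Acvr1b* was at 3.27 and 5.10 against 9.11 and 7.98 CPM (log2 fold change -0.89 ± 0.24 SE, edgeR adjusted p = 0.0226). The *Acvr1b* call was lost without control XX replicate 1 (log2 fold change -0.79, edgeR adjusted p = 0.0917) and without dKO XY replicate 1 (-0.63, 0.111). Among 32 genes of the AMH, activin and BMP pathways, 5 rose (15.6%, near the 14.5% of all genes tested), 8 fell (25%, against 11.8%) and 19 were not called. *Inhba*, the other activin subunit gene, was at 31.8 and 26.1 CPM in the members and 1.21 and 3.08 CPM in control XX (log2 fold change 4.01 ± 0.40 SE, edgeR adjusted p = 0.000155). *Inha*, the inhibin subunit, was at 224 and 212 against 97.7 and 106 CPM (log2 fold change 1.23 ± 0.12 SE, edgeR adjusted p = 0.000152). Both groups were apart in these genes. In dKO XY interstitial cells *Inhba* was at 183 and 205 CPM and in Leydig cells *Inha* was at 2404 and 2086 CPM. *Bmp4* was at 15.6 and 16.9 against 2.97 and 3.96 CPM (log2 fold change 2.39 ± 0.20 SE, edgeR adjusted p = 7.60e-05) and *Tgfbr3*, encoding betaglycan, a coreceptor for inhibin, at 28.2 and 44.8 against 9.40 and 8.32 CPM (log2 fold change 2.18 ± 0.21 SE, edgeR adjusted p = 0.000130).

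The *Id* genes, targets of SMAD signalling, differed between the dKO XY libraries. *Id2* was at 124 and 39.0 CPM in the members and 286 and 373 CPM in control XX (log2 fold change -1.87 ± 0.42 SE, edgeR adjusted p = 0.0102). *Id1* was at 856 and 172 against 911 and 1237 CPM (log2 fold change -0.92 ± 0.55 SE, edgeR adjusted p = 0.258). dKO XY replicate 1 was several times replicate 2 in both. The same difference between these libraries was seen in dKO XY interstitial cells, with 1071 and 378 CPM of *Id1*, and in Sertoli-program cells, with 222 and 64.0 CPM. The immediate early gene *Fos* was likewise at 3060.4 and 1076 CPM in the members. Of the 11 immediate early and heat shock genes, 1 was called, the heat shock gene *Dnajb1* (85.3 and 37.6 against 248 and 166 CPM, log2 fold change -1.61 ± 0.34 SE, edgeR adjusted p = 0.00748). *Smad7*, an inhibitory SMAD gene, was at 136 and 91.7 against 111 and 145 CPM (log2 fold change -0.03 ± 0.21 SE, edgeR adjusted p = 0.931), and at 435 and 534 CPM in control XY Sertoli-program cells. Without dKO XY replicate 2 or without control XX replicate 1, 3 of the 32 pathway genes fell in place of 8, and without control XX replicate 2, 4 did.

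Of 13 retinoic acid genes, 1 rose (7.69%, against 14.5% of all genes tested), 2 fell (15.4%, against 11.8%) and 10 were not called. *Cyp26b1*, encoding the enzyme that degrades retinoic acid and shields germ cells of the testis, was at 12.2 and 21.0 CPM in the members and 0.661 and 0.660 CPM in control XX (log2 fold change 4.78 ± 0.31 SE, edgeR adjusted p = 1.73e-05). Control XY Sertoli-program cells had 36.8 and 50.4 CPM and dKO XY Leydig cells 208 and 342 CPM. The members lay between the controls in *Cyp26b1* in both libraries, and the part of Leydig RNA in this value was not tested. *Aldh1a1*, a retinaldehyde dehydrogenase gene, was at 359 and 406 against 388 and 316 CPM (log2 fold change 0.26 ± 0.14 SE, edgeR adjusted p = 0.217).

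Of 11 steroid and Leydig cell genes tested, 6 rose (54.5%, against 14.5% of all genes tested): *Insl3*, *Star*, *Hsd17b3*, *Scarb1*, *Inha* and *Gramd1b*. *Star*, which encodes the protein that brings cholesterol into mitochondria, was at 35.0 and 34.4 CPM in the members and 6.67 and 7.29 CPM in control XX (log2 fold change 2.46 ± 0.22 SE, edgeR adjusted p = 9.95e-05), and at 1547 and 1567 CPM in dKO XY Leydig cells. *Insl3*, a hormone of Leydig cells, was at 13.5 and 11.0 CPM in the members and at 1536 and 953 CPM in Leydig cells. *Hsd17b3*, which encodes the enzyme that completes testosterone synthesis and is made by fetal Sertoli cells in mice, was at 9.60 and 7.48 against 0.384 and 0.471 CPM (log2 fold change 4.49 ± 0.21 SE, edgeR adjusted p = 2.69e-06) and at 265 and 267 CPM in control XY Sertoli-program cells. *Scarb1*, a receptor for HDL cholesterol, was at 83.5 and 95.7 against 24.9 and 20.5 CPM (log2 fold change 2.11 ± 0.16 SE, edgeR adjusted p = 3.72e-05), with 48.7 and 54.0 CPM in interstitial cells. The members were above control XX in both libraries for *Star*, *Hsd17b3* and *Scarb1*. No control XX cell met the Leydig limit, and the part of Leydig RNA in the *Insl3* and *Star* values was not tested. *Cyp19a1*, the estrogen synthase of later granulosa cells, had too few UMIs to be tested.

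Basement membrane and junction genes were mostly higher in the members: 12 of 21 rose (57.1%, against 14.5% of all genes tested), 2 fell (9.52%, against 11.8%) and 7 were not called, with a median log2 fold change of 0.60. *Col4a1* (chromosome 8, 11198423 to 11312826), a type IV collagen chain, was at 520 and 676 CPM in the members, 145 and 115 CPM in control XX (log2 fold change 2.34 ± 0.17 SE, edgeR adjusted p = 3.19e-05) and 229 and 235 CPM in control XY Sertoli-program cells. *Col4a2*, its head-to-head neighbour, was at 192 and 264 against 92.8 and 72.9 CPM (log2 fold change 1.60 ± 0.18 SE, edgeR adjusted p = 0.000250) and the linker gene *Nid1* at 81.9 and 98.6 against 41.3 and 34.7 CPM (log2 fold change 1.38 ± 0.15 SE, edgeR adjusted p = 0.000248). In *Col4a1* and *Col4a2* the members lay above both controls in every library. Interstitial cells of dKO XY held more of each, with 949 and 1400.1 CPM of *Col4a1* and 145 and 178 CPM of *Nid1*. In members without a UMI of *Tcf21* or *Sycp3*, *Col4a1* was at 355 and 486 CPM, against 144 and 121 CPM in such control XX cells. *Gja1*, encoding the gap junction protein connexin 43, fell to 65.9 and 58.3 from 114 and 120.4 CPM (log2 fold change -0.78 ± 0.13 SE, edgeR adjusted p = 0.00201), and *Tjp1*, a tight junction scaffold, to 41.4 and 56.4 from 103 and 87.1 CPM (log2 fold change -0.82 ± 0.16 SE, edgeR adjusted p = 0.00564). Without dKO XY replicate 2, 6 genes of the list rose in place of 12.

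Keratin genes fell. *Krt8* and *Krt18*, which pair in simple epithelia, were at 46.5 and 33.9 and at 45.9 and 27.6 CPM in the members, against 156 and 156 (log2 fold change -1.82 ± 0.16 SE, edgeR adjusted p = 8.69e-05) and 159.9 and 166 CPM (log2 fold change -2.01 ± 0.22 SE, edgeR adjusted p = 0.000245) in control XX, and *Krt7* and *Krt19* fell as well. Of 10 supporting-like and rete cell genes, 4 fell (these keratins), 1 rose (*Tesc*) and 5 were not called, where 11.8% of all genes tested fell and 14.5% rose. *Pax8*, a marker of the supporting-like cells of the rete, was at 5.96 and 9.93 against 7.71 and 10.6 CPM, with overlapping libraries. Of 5 coelomic epithelium genes tested, 2 fell (*Upk1b* and *Krt19*), with *Upk1b* at 0.582 and 0.516 against 3.04 and 1.92 CPM. Its call was lost without dKO XY replicate 2 (log2 fold change -1.96, edgeR adjusted p = 0.0506) and without control XX replicate 1 (-1.66, 0.0766).

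Markers of other cell types were present in the members. The 15 interstitial genes summed to 1204 and 1289 CPM in the members, 755 and 1171 CPM in control XX and 5808 and 6047 CPM in dKO XY interstitial cells, and 6 of them rose, 1 fell and 8 were not called. *Tcf21* itself was at 89.3 and 81.9 against 21.9 and 91.8 CPM, and the libraries overlapped through control XX replicate 2. At 5000 UMIs it was detected in 22.5% and 18.2% of the members (unthinned 42.7% and 44.6%). In control XX cells it was in 4.63% and 19.6% (unthinned 10.3% and 30.6%). In dKO XY Sertoli-program cells it was in 9.52% and 9.65% (unthinned 22.3% and 23.4%). The hedgehog targets *Ptch1* and *Gli1* were at 166 and 164 and at 6.11 and 10.4 CPM in the members, against 54.7 and 38.8 (log2 fold change 1.96 ± 0.18 SE, edgeR adjusted p = 0.000106) and 0.457 and 0.785 CPM (log2 fold change 3.95 ± 0.37 SE, edgeR adjusted p = 0.000117) in control XX, and *Ptch1* was at 157 and 132 CPM in the members without *Tcf21* or *Sycp3*. All 7 immune genes tested rose, from a sum of 1.84 and 2.07 CPM in control XX to 51.5 and 22.8 CPM in the members, where dKO XY interstitial cells had 58.4 and 48.3 CPM. Without likely doublets 4 of the 7 rose, and without cells with *Tcf21* or *Sycp3* 2 did. Over all genes tested 14.5% rose and 11.8% fell. Of the pericyte genes 5 of 7 rose, with sums of 181 and 169 CPM in the members and 39.3 and 120.0 CPM in control XX. Of the endothelial genes 2 of 6 rose, with 74.7 and 31.4 against 41.2 and 41.0 CPM. Of the germ cell genes 3 of 10 rose and 3 fell, with 47.6 and 60.4 against 74.5 and 88.4 CPM. Of the erythroid genes 2 of 7 rose, with 1562 and 695 CPM in the members, 480.0 and 851 CPM in control XX and 462 and 243 CPM in dKO XY interstitial cells. The sums of the members and control XX overlapped for the endothelial and erythroid genes and were apart for the pericyte and germ cell genes. *Sycp3*, a meiosis gene, was at 4.51 and 3.61 CPM in the members and 32.8 and 47.0 CPM in control XX (log2 fold change -3.16 ± 0.33 SE, edgeR adjusted p = 0.000187). The part of these other cell types in the members' values was not tested.

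A few genes were higher in the members than in control XY Sertoli-program and control XX granulosa-program cells. Other cells of the control gonads had no part in this choice. In 5 genes the lower dKO XY library was at least 4 times the highest of the 4 libraries of these control cells, and at 50 CPM or more. They were *Pltp* (6.25 times), *Cpa1* (6.06), *Ccnd1* (5.01), *Sct* (4.91) and *Smoc2* (4.01). At 2 times there were 24 genes above both controls and 9 below both, and at 4 times no gene was below both. *Cpa1* (chromosome 6, 30639218 to 30645363), a gene of the digestive enzyme carboxypeptidase A1, was at 216 and 289.9 CPM in the members, 35.7 and 16.4 CPM in control XX (log2 fold change 3.40 ± 0.38 SE, edgeR adjusted p = 0.000261) and 5.25 and 1.92 CPM in control XY. It was at 43.2 and 68.9 CPM in interstitial and 153.3 and 159.5 CPM in Leydig cells of dKO XY, and co-expressing cells had 43.2 and 191 CPM, so *Cpa1* was highest in the members among these classes in both libraries. At 5000 UMIs it was detected in 28.4% and 40.4% of the members (unthinned 52.1% and 65.2%) and 4.4% and 5.98% of endothelial cells. *Cpa1* was also detected at this depth in 13.56% and 21.0% of dKO XY interstitial cells. In control XY interstitial cells it was in 13.26% and 11.98%, so the normal testis held *Cpa1* too. *Ccnd1* (chromosome 7, 144929931 to 144939925), encoding cyclin D1, was at 86.1 and 115 CPM in co-expressing and 414 and 477 CPM in endothelial cells.

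*Pltp*, *Smoc2* and *Sct*, like *Ccnd1*, were as high or higher in other dKO XY cells. The normal testis also held *Smoc2*. At 5000 UMIs it was detected in 51.4% and 47.3% of control XY interstitial cells and 20.5% and 25.7% of the members. *Pltp* (chromosome 2, 164839518 to 164857711), a phospholipid transfer protein gene, was at 68.6 and 81.3 CPM in the members and 4.39 and 4.74 CPM in control XX (log2 fold change 4.18 ± 0.18 SE, edgeR adjusted p = 1.65e-06), but at 107 and 120.1 CPM in interstitial cells. *Smoc2* (chromosome 17, 14279506 to 14404790) was at 69.6 and 100.1 CPM in the members and 87.3 and 100.3 CPM in interstitial cells, and *Sct* (chromosome 7, 141278330 to 141279133), encoding the hormone secretin, at 59.5 and 55.5 CPM (log2 fold change 5.57 ± 0.21 SE, edgeR adjusted p = 7.98e-07) and at 1588 and 1579.5 CPM in Leydig cells. In members without a UMI of *Tcf21* or *Sycp3* the levels were 66.7 and 63.7 CPM of *Pltp*, 45.6 and 52.6 CPM of *Smoc2*, 34.0 and 45.4 CPM of *Sct*, 256 and 292 CPM of *Cpa1* and 73.5 and 104 CPM of *Ccnd1*. In such control XX cells they were 4.45 and 4.73 CPM of *Pltp*, 0.244 and 0.709 CPM of *Smoc2*, 0.952 and 1.18 CPM of *Sct*, 41.3 and 14.3 CPM of *Cpa1* and 14.4 and 10.2 CPM of *Ccnd1*. Both dKO XY libraries were thus above both control XX libraries in each of the 5 genes when those cells were left out. The 5 genes were chosen for this order in the same libraries, so it is a description. Of the 630 and 689 Leydig cells of dKO XY, 372 and 399 had no UMI of *Tcf21* or *Sycp3*. This filter therefore does not single out Leydig RNA.

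**Figure D4:**
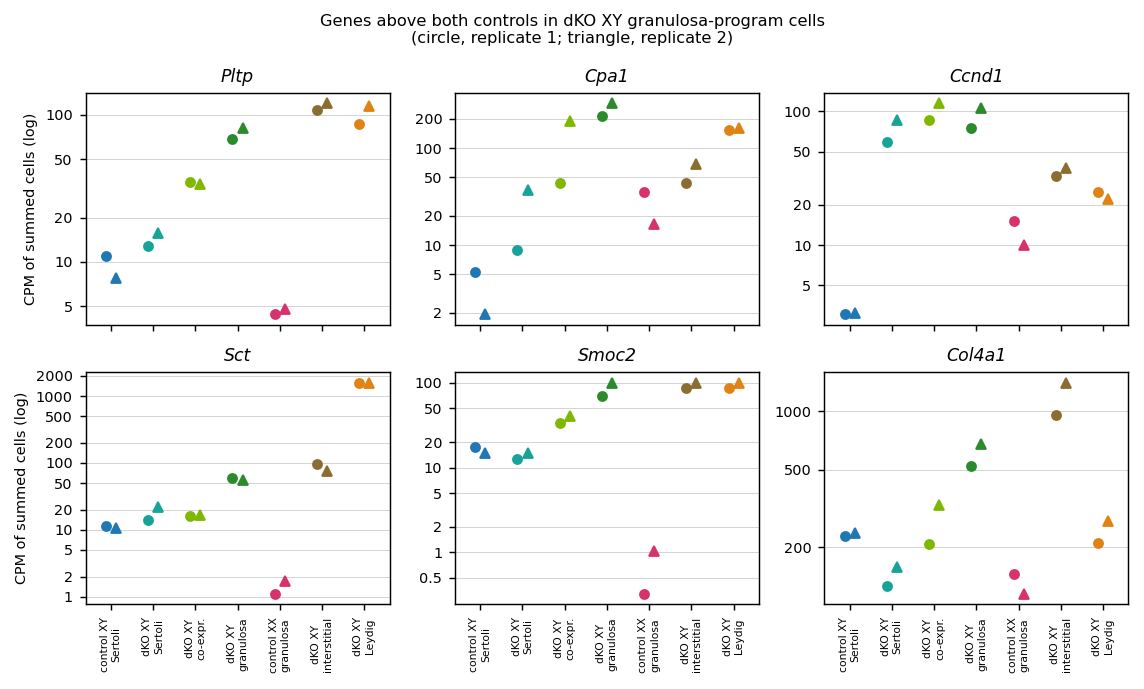
CPM on a log axis of 5 genes and of *Col4a1*, by cell class and library (circle, replicate 1, and triangle, replicate 2). The 5 genes are at least 4 times above control XY Sertoli-program and control XX granulosa-program cells in the members. Interstitial and Leydig cells of dKO XY are on the right. *Cpa1* is highest in the members among the classes shown, at 216 and 289.9 CPM, and *Sct* in Leydig cells, at 1588 and 1579.5 CPM.

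The members varied with the level of the granulosa genes that chose them. Split by the sum of *Rspo1*, *Foxl2* and *Fst*, 25.8% and 17.7% of the members had 800 CPM or more, against 80.7% and 70.1% of control XX granulosa-program cells, and 14.7% and 13.7% had 100 to 200 CPM, against 2.31% and 8.06%. From the 100 to 200 CPM group to the group of 800 CPM or more, *Irx3* went from 27.0 and 13.99 to 212 and 109 CPM in the members, *Runx1* from 56.1 and 66.2 to 143 and 142 CPM, and *Cdkn1b* from 88.5 and 113 to 371 and 330.0 CPM. The mitosis list went from 954 and 1481 to 391 and 273 CPM. Each of these moved the same way in both libraries, and in both control XX libraries as well, so these trends were not particular to the members. In control XX *Irx3* went from 26.0 and 25.9 to 397 and 464 CPM and *Runx1* from 50.1 and 30.7 to 181 and 138 CPM. *Cdkn1b* went from 86.6 and 91.0 to 712 and 774 CPM there, and the mitosis list from 1771 and 628 to 81.3 and 127 CPM. *Dhh* was at 8.47 and 4.66 CPM in the lowest and 5.67 and 10.0 CPM in the highest group. The interstitial list was at 1989 and 2769.8 CPM in the lowest group and 795 and 584 CPM in the highest, and in control XX at 4237 and 4079 and 583 and 701 CPM, so the cells with few granulosa UMIs held the most interstitial RNA in both genotypes.

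Members with 800 CPM or more of the rule's granulosa genes still differed from control XX cells with 800 CPM or more. This group has no upper limit, so the levels of those genes were not matched. *Fst* was at 697 and 473 CPM in these members and 1422 and 1254 CPM in control XX. *Runx1* was at 143 and 142 CPM against 181 and 138 CPM in control XX, and *Wnt4* at 493 and 526 against 579.6 and 559 CPM. *Irx3* was at 212 and 109 against 397 and 464 CPM and *Kitl* at 401 and 362 against 888 and 867 CPM. The groups overlapped in *Runx1* and were apart in the other 3. *Mki67* was at 44.5 and 31.3 against 8.28 and 11.1 CPM, *Cpa1* at 257 and 323 against 38.6 and 17.7 CPM and *Smoc2* at 24.5 and 27.0 against 0.327 and 1.01 CPM, while *Tcf21*, at 24.5 and 14.8 against 8.52 and 33.7 CPM, overlapped. These are descriptions of 128 and 80 members and were not tested. In the bounded group of 400 to 800 CPM, *Irx3* was at 67.2 and 81.3 CPM in the members and 247 and 320 CPM in control XX. *Kitl* was at 248 and 249 against 683 and 602 CPM there, also not tested. In the group of 200 to 400 CPM both genes were again lower in the members in both libraries. In the group of 100 to 200 CPM *Irx3* overlapped, at 27.0 and 13.99 against 26.0 and 25.9 CPM. *Kitl* differed less in this lowest group, at 153.1 and 123.1 against 157.04 and 158.85 CPM. The mitosis list overlapped in it, at 954 and 1481 against 1771 and 628 CPM.

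**Figure D5:**
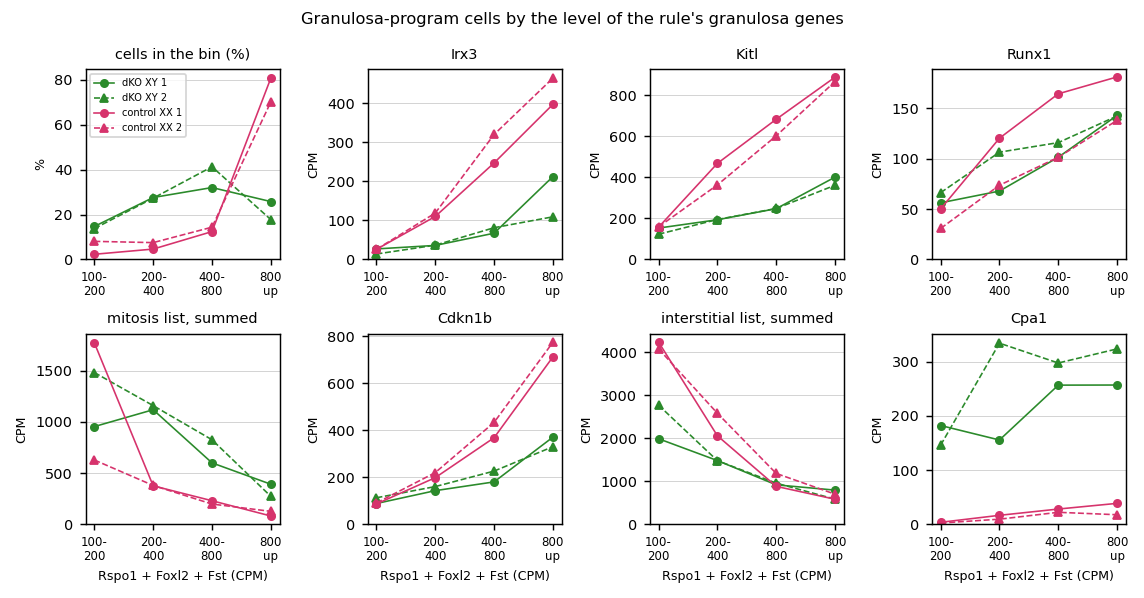
Granulosa-program cells of dKO XY (green) and control XX (pink) in groups by the summed level of *Rspo1*, *Foxl2* and *Fst* (x axis, CPM), with the share of cells in each group and the CPM of summed cells for 5 genes and 2 lists (circle and solid line, replicate 1; triangle and dashed line, replicate 2). *Irx3* and *Cdkn1b* are higher, and the mitosis list lower, in the last group than in the first, in the members and in control XX. *Cpa1* in the members is above control XX in every group.

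On a scale from control XY Sertoli-program cells (0) to control XX granulosa-program cells (1), averaged over 2031 and 2234 genes that differ between them and without the rule's genes and sex-linked genes, the members lay at 0.703 and 0.657 (mean 0.680 ± 0.0322, SD, n = 2). Co-expressing cells lay at 0.450 and 0.434 and dKO XY Sertoli-program cells at 0.178 and 0.186. For the members, genes higher in control XX gave 0.701 and 0.632 and genes higher in control XY gave 0.705 and 0.682. The 3 dKO XY classes were apart by more than the spread of their libraries, in the order that the rule itself imposes. *Fbln2* did not follow this order and was highest in dKO XY Sertoli-program cells, at 380.2 and 424 CPM, with 124 and 162 CPM in the members.

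The 12 control XY cells that met the rule were few. Their UMIs, pooled over both libraries, held 203 CPM of *Tcf21*, 25.4 CPM of *Sox9* and 702 CPM of *Fst*. The 4 cells of replicate 1 gave 203412 of the 314965 UMIs. *Fst* was detected in 100% of these 4 and 25% of the 8 cells of replicate 2, so the pooled levels describe neither library. *Runx1* was represented by 1 UMI in 314965, and *Irx3* and *Myl1* by 0, which allows up to 3 UMIs of each (counting error only). In the members *Runx1* was at 95.2 and 110.4 CPM, *Irx3* at 87.6 and 64.4 CPM and *Sox9* at 81.6 and 59.5 CPM.

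The members held Y-linked transcripts. A UMI of *Ddx3y*, *Uty*, *Kdm5d* or *Eif2s3y* was detected in 97.6% and 98.2% of the members and 0.0670% and 0.160% of control XX cells, and at 5000 UMIs in 70.8% and 67.0% of the members and 73.1% and 71.9% of dKO XY Sertoli-program cells. *Xist*, expressed from the inactive X chromosome, was at 0.291 and 0.323 CPM in the members and 1725 and 1391 CPM in control XX. Of 472 X-linked genes tested, 82 (17.4%) were higher and 56 (11.9%) lower in the members, near the 14.5% and 11.8% of all genes tested.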

How the data were processed

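Raw UMI counts per gene and cell were deposited for 6 libraries, 2 per genotype. The authors made these counts with Cell Ranger on mm10, called cells and corrected for swapped barcodes; the labels also name Seurat 4.0. A barcode was kept as a cell when it held over 2500 but below 9000 genes, with mitochondrial UMIs below 25% and those of *Hbb-* genes below 20%. Supporting cell classes were cut by the limits given in the report. Endothelial cells had at least 300 CPM of *Pecam1* and *Cdh5*, interstitial cells at least 200 CPM of *Pdgfra* and *Tcf21*, both with *Kctd14* under 300 CPM, and Leydig cells at least 4000 CPM of *Cyp17a1* and *Cyp11a1*. Interstitial cells also had under 200 CPM of *Cst9*. No clustering and no doublet removal entered the main values. The members and gene lists were chosen with earlier results of these data known.

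UMIs were summed over cells per library, and granulosa-program cells of dKO XY and control XX were compared with edgeR 4.0.16 (R 4.3.3; filterByExpr, TMM, quasi-likelihood test, Benjamini-Hochberg adjusted p under 0.05). Control XY Sertoli-program sums shared the fit. A group is 2 embryos. The p-values rest on a spread between libraries that is pooled over the 3 groups and moderated across genes. Comparisons with control XY use the contrast of the rule and carry no test. Library totals were 152972655 to 296488697 UMIs, and the members' sums 13755770 and 15502112 UMIs, against 83234407 and 31836354 in control XX.

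Genes were named from the lists by their roles. Others were the 10 largest rises and falls among called genes of at least 32 CPM whose libraries did not overlap. The last were genes at least 4 times above or below control XY Sertoli-program and control XX granulosa-program cells, at 50 CPM or more. Gene positions are from GENCODE M21 (GRCm38). Alternatives were DESeq2 1.42.0, its size factors, no filter on low counts, the 2 groups alone, a replicate block, each library left out, and other limits on cells, doublets (Scrublet in scanpy 1.11.5) and classes. On counts simulated from these libraries the test made a larger share of false calls than its threshold names, so the counts of called genes may hold more than that share.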

Additional observations from a re-analysis of the deposited data

How the results depend on the processing

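Across 17 alternatives 2405 to 5291 genes were called, against 3821, and no gene was called in the opposite direction. With 1 library left out the count was 2405 (without dKO XY replicate 2) to 3554 (without control XY replicate 2). The cause of the loss without dKO XY replicate 2 was not tested. DESeq2 called 3514 genes, and leaving out cells with *Tcf21* or *Sycp3* gave 2828. Of 22 genes named by size, 373 of 374 refits kept direction and call, the exception being *Calb1* under DESeq2 (log2 fold change -3.10, adjusted p = 0.07). Of 150 other called genes of the lists, 108 passed in every refit. The 150 include called genes of the rule, whose values chose the cells. Of the 150, only *Lama2* changed sign, at -0.083 without cells with *Tcf21* or *Sycp3*. The immune genes higher in dKO XY went from 7 to 4 without likely doublets and to 2 without cells with *Tcf21* or *Sycp3*.

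Same-numbered libraries did not deviate together (correlations of -0.19, 0.04 and -0.17), so the numbers only name libraries. With the numbers as a replicate block 3181 genes were called, and with crossed numbers, an alternative chosen after seeing the data, 5291.

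The mean share of *Kctd14* cells in the granulosa program in dKO XY was 34.2%, and 29.3% with at least 200 CPM of granulosa genes or 30.7% with under 100 CPM of *Cst9*. The mean position was 0.680, and 0.713 without likely doublets or 0.716 without cells with *Tcf21* or *Sycp3*. With 1 dKO XY library left out it was 0.657 to 0.703, and the share was 31.7% to 36.6%. With 2 libraries a group, a gene that was not called is not shown to be unchanged.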

Other observations

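Among the supporting classes given here, some genes of the lists were highest in dKO XY Sertoli-program cells. The granulosa-program cells of the same testes were between these and control XX. Other cell types were not compared for these genes. *Col18a1*, encoding the basement membrane collagen that holds endostatin, was at 793 and 961 CPM in dKO XY Sertoli-program cells, 238 and 303 CPM in the granulosa-program cells, 292 and 372 CPM in control XY and 181 and 98.4 CPM in control XX (log2 fold change 1.09 ± 0.26 SE, edgeR adjusted p = 0.0140). The call was lost without dKO XY replicate 2. *Lama4*, a laminin chain gene, was at 52.2 and 62.0 CPM in dKO XY Sertoli-program cells and 11.7 and 13.0 CPM in the granulosa-program cells, against 5.26 and 5.03 CPM in control XX (log2 fold change 1.40 ± 0.16 SE, edgeR adjusted p = 0.000289). *Podxl*, encoding the surface sialomucin podocalyxin, had the reverse order. It was at 78.6 and 77.5 CPM in dKO XY granulosa-program cells and 112 and 89.4 CPM in control XX (log2 fold change -0.23 ± 0.15 SE, edgeR adjusted p = 0.300), at 30.1 and 38.9 CPM in dKO XY Sertoli-program cells and at 3.02 and 2.01 CPM in control XY.

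The 4 Sertoli genes that were lower in dKO XY granulosa-program cells than in control XX included *Mro* at 14.7 and 16.8 against 30.6 and 34.2 CPM (log2 fold change -0.90 ± 0.13 SE, edgeR adjusted p = 0.00111), and *Gstm6*, a glutathione transferase gene, at 167 and 173 against 414 and 490.4 CPM (log2 fold change -1.27 ± 0.13 SE, edgeR adjusted p = 0.000165). Both groups were apart in these genes. *Fgfr2*, the FGF receptor of both supporting lineages, was at 42.3 and 48.6 against 97.2 and 77.8 CPM (log2 fold change -0.81 ± 0.17 SE, edgeR adjusted p = 0.00780) and at 5.09 and 3.10 CPM in control XY Sertoli-program cells. *Cdkn1a*, encoding p21, was at 61.7 and 40.2 against 35.0 and 39.7 CPM (log2 fold change 0.59 ± 0.35 SE, edgeR adjusted p = 0.253). The part of cell makeup and of free RNA in these values was not tested.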
